A study of Mus musculus with 15 samples.

Results

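The mRNAs held by ribosomes before and after fertilisation were compared in eggs and zygotes of female mice without Eif4e1b. Of the 15 ribosome-profiling libraries of the study, 5 belong to this comparison: 2 of metaphase II (M2) eggs and 3 of zygotes at pronuclear stage 5 (PN5), the last stage before the first cleavage, all from Eif4e1b knockout (KO) donors. The donors were B6D2F1 females. They also carried Rpl22 with an HA tag, and since RPL22 sits in the large ribosomal subunit, ribosomes could be pulled down by it together with their mRNAs. The 5 libraries used here for reference, 2 of M2 eggs and 3 of PN5 zygotes, came from heterozygous (Het) donors of the same strain with the same tag. The remaining 5 libraries, of early 2-cell embryos, entered the model only as further groups. Each library was made from a pool of about 200 eggs or zygotes. Lysates were treated with RNase I, and the fragments protected by tagged ribosomes were sequenced. The labels give the age of no donor, neither the driver of the tag nor the genotype of the sires, and whether the pools of a group came from different animals is not stated. P-values therefore measure only the spread between these samples.

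The mammalian egg stops transcribing before it matures, so the first proteins of the embryo are made from stored maternal mRNAs, and fertilisation is followed by a change in which of these mRNAs are translated and by the decay of many others. Translation usually begins when eIF4E binds the cap of an mRNA and, through the scaffold eIF4G, brings in the small ribosomal subunit. Eif4e1b encodes a relative of eIF4E that is found mainly in oocytes and early embryos. The comparison asks which mRNAs were gained or lost among ribosome-bound fragments between egg and zygote when the mother lacked this factor. All 15 libraries are of such fragments, with no total RNA beside them. A change in ribosomes per mRNA and a change in the amount of the mRNA therefore cannot be told apart.

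The targeted gene could not check the genotype labels. No count fell on Eif4e1b (ENSMUSG00000074895) in any of the 5 KO or 5 Het libraries. The gene lies on chromosome 13, from 54783994 to 54788459 in GRCm38. Eif4e, the somatic cap-binding protein, had 0 counts in the KO libraries and 10 counts in PN5 Het replicate 2 alone. Rpl22, the tagged gene, had 0 counts in these 10 libraries. Markers of the egg were sparse. Of 12 egg and oocyte markers, 5 had a count in a KO library (Bmp15, Dppa3, Mos, Nlrp5 and Ooep), with 0 and 5 counts in the M2 libraries and 32, 1 and 30 in the PN5 libraries, while the zona pellucida genes Zp1, Zp2 and Zp3 and the growth factor Gdf9 were at 0.

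The libraries were dominated by ribosomal RNA and left few counts for mRNA. Cytosolic rRNA took 84.8% to 87.4% of the counts in 4 of the KO libraries and 58.9% in PN5 KO replicate 3, where mitochondrial transcripts took 36.0% against 8.88% to 12.1% in the others. Nearly all of the mitochondrial counts were mitochondrial rRNA, at 36.0% of all counts in PN5 KO replicate 3 and 8.87% to 12.1% in the others. After both classes were removed, the M2 KO libraries kept 12788 and 64111 counts and the PN5 KO libraries 18549, 22792 and 45608, of which protein-coding genes held 5997 and 47399 in M2 and 15395, 11811 and 39997 in PN5. A single row without a RefSeq match, CT010467.1, took 40.8% of the retained counts in M2 KO replicate 1 and 31.1% in PN5 KO replicate 2, against 0.978% to 10.5% in the other KO libraries, so 1 library of each stage stands apart in this respect. Whether this row holds rRNA was not tested. It stayed among the retained counts and so enters their totals and the TMM factors, but not the shares of protein-coding counts, and with protein-coding genes alone edgeR also called 0 of 464 genes, with 15 at an unadjusted p under 0.05. At an equal depth of 12788 retained counts, 694 and 1235 genes were detected in the M2 libraries and 1116, 1228 and 1085 in the PN5 libraries. The mean retained count was 38450 ± 36291 (SD, n = 2) in M2 KO and 28983 ± 14553 (SD, n = 3) in PN5 KO. None of these measures differed between the stages by a two-sided exact permutation test: p was 0.5 for the rRNA share, 0.4 for the mitochondrial share (1.77-fold higher in PN5), 1 for the retained counts and 0.5 for the genes detected, with adjusted values of 0.667, 0.667, 1 and 0.667 over the 4 tests. The smallest p that 3 libraries against 2 allow is 0.1. The equal depth of 12788 includes CT010467.1. At an equal depth of 5997 protein-coding counts, 497 and 862 protein-coding genes were detected in M2 and 674, 947 and 645 in PN5, which was not tested.

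**Figure D1:**
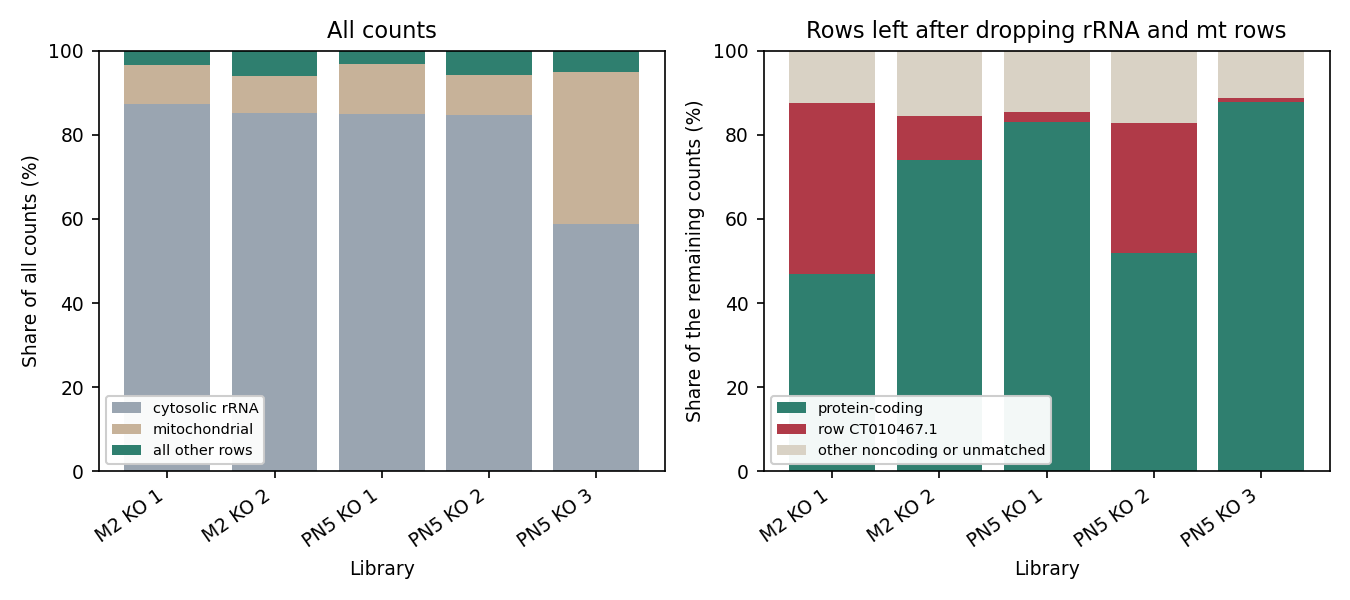
Left, the share of all counts (%) in cytosolic rRNA, mitochondrial transcripts and all other rows in the 5 KO libraries; right, the share (%) of the remaining counts in protein-coding genes, the row CT010467.1 and other rows. PN5 KO replicate 3 has the lowest cytosolic rRNA share (58.9%), and CT010467.1 takes 40.8% in M2 KO replicate 1 and 31.1% in PN5 KO replicate 2.

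The mRNAs that led the ribosome-bound pool were largely those of the egg, and no gene passed the test for a change at fertilisation. Of the 20 protein-coding genes with the highest mean share of the retained counts in M2 KO, 16 were also among the 20 highest in PN5 KO, and of the first 10, 8 were shared. edgeR's quasi-likelihood test called 0 of 533 genes at an adjusted p under 0.05 (0% called; smallest adjusted p = 1), with 19 genes at an unadjusted p under 0.05 (3.56% of those tested), 2 higher in zygotes (0.375%) and 17 lower (3.19%). The other tools also called 0 genes. The DESeq2 Wald test had 5 genes at an unadjusted p under 0.05 (0.938%), and limma-voom had 35 (6.57%). The spread was wide: the biological coefficient of variation was 1.33, and the median standard error (SE) of a log2 fold change was 1.99, so changes of severalfold could go undetected for most genes. Libraries of 1 stage differed from each other as much as libraries of different stages did. The median absolute log2 difference across the tested genes, on the log2 (CPM + 50) scale, was 1.29 between the M2 libraries, 1.01 to 1.60 between the PN5 libraries and 0.934 to 1.21 between stages.

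Ncl, which encodes nucleolin, the main nucleolar RNA-binding protein, led both stages. It held 11.9% and 7.81% of the protein-coding counts in the M2 KO libraries and 10.4%, 5.16% and 7.23% in the PN5 KO libraries. The stages overlapped, with means of 9.87 ± 2.91% (SD, n = 2) and 7.59 ± 2.62% (SD, n = 3), and the edgeR log2 fold change was -0.41 (SE 0.81, unadjusted p = 0.62). Shares of counts are not corrected for the length of an mRNA, so the order of genes within a library is not an order of ribosome density.

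Eif5b, which encodes the GTPase that joins the ribosomal subunits at the start codon, lay lower in every zygote library than in either egg library. Its share of the protein-coding counts was 10.4% and 6.45% in M2 KO and 4.24%, 4.70% and 5.35% in PN5 KO. On the CPM scale, which sets libraries to a common size with TMM factors, it was at 87265 and 66281 in eggs and at 39631, 36154 and 49592 in zygotes, or 76773 ± 14838 (SD, n = 2) against 41792 ± 6975 (SD, n = 3). The change did not pass the edgeR test (log2 fold change -0.88, SE 0.79, unadjusted p = 0.282, adjusted p = 1). In Het libraries its share was 5.06% and 7.37% in eggs and 3.49%, 3.39% and 11.7% in zygotes, which overlap.

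Among the other leaders, the stages of Nexn, Anp32b and Top1 overlapped by share of the protein-coding counts, and those of Atrx did not. Nexn, an actin-binding protein, was at 7.19% and 4.67% in eggs and 4.98%, 4.98% and 2.69% in zygotes, with an edgeR log2 fold change of -0.57 (SE 1.01). Anp32b, an acidic histone chaperone, was at 7.74% and 3.55% against 5.29%, 2.44% and 6.47%, with -0.25 (SE 1.77). The direction of Ncl and of Anp32b turned when library totals replaced TMM factors (log2 fold changes of 0.048 and 0.27). Top1, the DNA topoisomerase that relaxes supercoils, was at 3.92% and 2.39% against 2.99%, 2.00% and 2.09%. Atrx, a chromatin remodeller that places histone H3.3, held 2.40% and 1.66% in eggs and 1.52%, 1.39% and 1.20% in zygotes. Its zygote libraries all lay below its egg libraries, yet the edgeR log2 fold change was only -0.64 (SE 0.87, unadjusted p = 0.476).

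**Figure D2:**
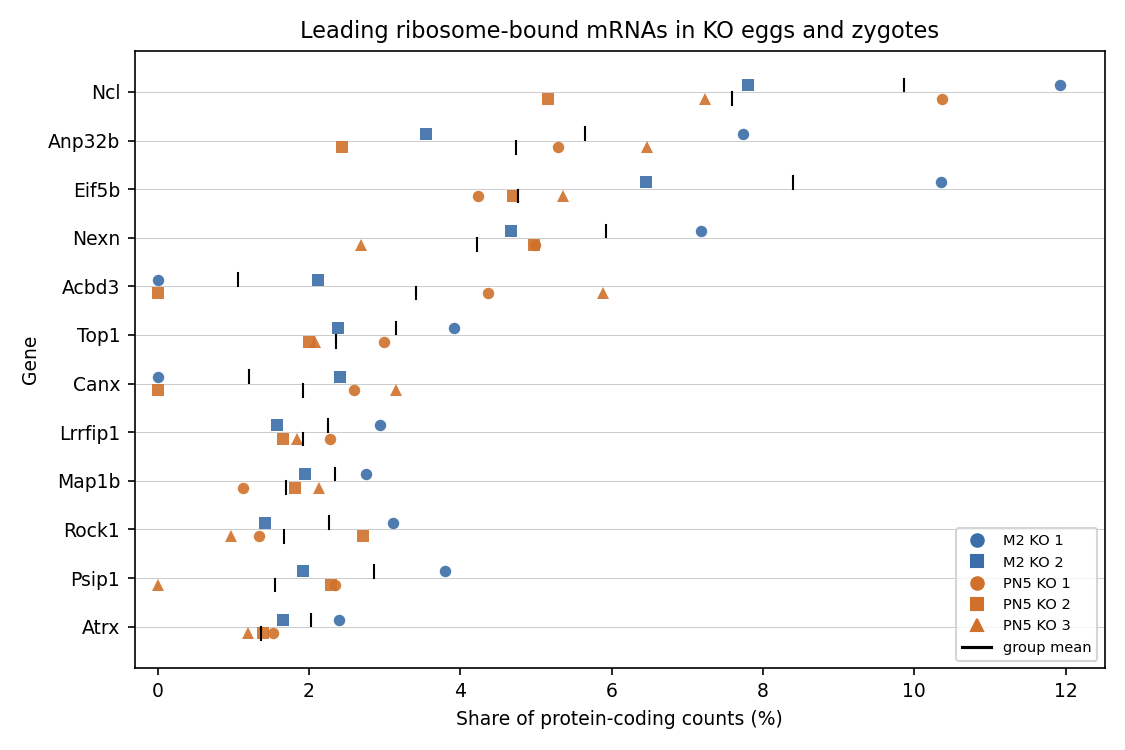
Share of the protein-coding counts (%) of 12 leading ribosome-bound mRNAs in each KO library, M2 in blue and PN5 in orange, with the group mean as a bar. Eif5b and Atrx are lower in the 3 zygote libraries than in the 2 egg libraries, whereas Ncl, Anp32b and Top1 overlap, and Acbd3 and Canx are at 0 in 1 library of each stage.

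Some abundant mRNAs, among them Acbd3 and Canx, were listed at 0 in 1 library of each stage. Acbd3, a Golgi scaffold protein, had 0 and 1003 counts in the M2 KO libraries and 672, 0 and 2356 in the PN5 KO libraries, and Canx, the membrane chaperone calnexin of the endoplasmic reticulum (ER), had 0 and 1145 in M2 and 400, 0 and 1261 in PN5. At the rate of the other egg library, M2 KO replicate 1 would hold 127 counts of Acbd3 and 145 of Canx. The KO libraries at 0 are the same for both genes. They are those rich in CT010467.1 and also those with the fewest protein-coding counts, 5997 and 11811. In Het, both genes were at 0 in egg replicate 1, where CT010467.1 took 1.20% of the retained counts. Canx was also at 0 in Het zygote replicates 1 (2.96%) and 3 (21.2%). Of 112 genes with at least 100 counts in a KO library, 64 had a count in all 5. The other 48 were listed at 0 in at least 1, 7 of them in exactly M2 KO replicate 1 and PN5 KO replicate 2. The zeros numbered 36 and 9 in the M2 libraries and 25, 29 and 19 in the PN5 libraries. The cause of these zeros was not tested, and the derivation of the estimated counts is not known here. A listing at 0 is therefore not taken to show that ribosomes carried none of an mRNA, and no fold change is given or drawn against a stage in which every library was at 0.

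At the level of presence, more genes were detected in zygotes only than in eggs only, over 3 zygote and 2 egg libraries and under criteria that were not equally strict. Single libraries held 497 and 1561 protein-coding genes in M2 KO and 914, 1162 and 1159 in PN5 KO. Of the protein-coding genes, 1682 had a count in an M2 KO library and 2105 in a PN5 KO library, and 1077 had a count in both stages, or 64.0% of the egg genes and 51.2% of the zygote genes. Only 203 were found in all 5 libraries, and depending on the library these made up between 53.5% and 78.3% of its protein-coding counts. Genes were taken as gained where they had 0 counts in both M2 KO libraries and at least 10 counts spread over at least 2 PN5 KO libraries, and as lost where they had at least 10 counts, some in each M2 KO library, and 0 in the 3 PN5 KO libraries. Among 3913 retained genes with a count in a KO library, the rule found 70 gained genes, 57 of them protein-coding. It found 10 lost genes, all protein-coding. A lost gene had to be counted in both egg libraries, M2 KO replicate 1 with 12788 retained counts included, and a gained gene in only 2 of the 3 zygote libraries. Most gained genes were thinly counted, with a median of 14 counts and a maximum of 242, and 13 of the 70 were seen in all 3 zygote libraries.

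The gained genes with the highest counts included regulators of chromatin. Brd9, a bromodomain subunit of a SWI/SNF remodelling complex (chromosome 13, 73937801 to 73960895 on GRCm38), had 41, 0 and 201 counts in the PN5 KO libraries and 0 in both egg libraries (edgeR unadjusted p = 0.0403). Srcap, the ATPase of the complex that deposits histone H2A.Z (chromosome 7, 127511983 to 127561219), had 0, 4 and 111 counts (unadjusted p = 0.071). Spin1, a reader of methylated histones known from the oocyte, had 7, 0 and 45. Most of these counts lay in PN5 KO replicate 3, the zygote library with the most retained counts (45608) and with the low cytosolic rRNA share. In the Het egg libraries Brd9 had 43 and 0 counts, Srcap 0 and 11 and Spin1 0 and 6.

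Genes of the nucleolus and of RNA handling were also among the gained genes with the highest counts. Lyar, a nucleolar protein of ribosome maturation (chromosome 5, 38220471 to 38234306), had 0, 10 and 103 counts in the PN5 KO libraries (unadjusted p = 0.0546). Nolc1, a nucleolar chaperone of small nucleolar ribonucleoproteins, had 14, 0 and 51 (unadjusted p = 0.0739). Rbm6, an RNA-binding protein of splicing, had 0, 13 and 48. Each of these genes was at 0 in 1 zygote library as well, so their stages overlap. In the Het egg libraries Lyar had 0 and 10 counts, Nolc1 3 and 11 and Rbm6 0 and 22.

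Lmo7 (chromosome 14, 101729928 to 101934708), an actin- and adhesion-linked LIM protein, had the lowest p among the genes higher in zygotes. It had 18, 0 and 90 counts in the PN5 KO libraries and none in eggs (edgeR unadjusted p = 0.0189). In Het it had 0 counts in both egg libraries and 62, 115 and 17 in the 3 zygote libraries, so the direction was the same in both genotypes. Iqgap2, a scaffold of the actin cytoskeleton, had 8, 0 and 71 counts in the PN5 KO libraries and 0 in all 5 Het libraries, and it did not reach the filter for testing. Hipk1, a nuclear kinase, had 0, 10 and 13 counts in zygotes (unadjusted p = 0.0682).

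Of the 70 gained genes, 38 also had 0 counts in both Het egg libraries, and 21 of these 38 had a count in a Het zygote library. The other 32 were present in Het eggs, and 17 of the 70 had no count in any Het egg or zygote library. Among those 17 were Bmp15, an oocyte growth factor, with 11, 0 and 6 counts in the PN5 KO libraries, and Yap1, a maternal co-activator of the Hippo pathway, with 17, 2 and 0. Bmp15 was thus at 0 in the egg libraries of both genotypes. Whether the depth or the number of the egg libraries accounts for the excess of gained over lost genes was not tested.

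The lost set was small, and 2 of its genes could be tested. Ino80, the ATPase of the INO80 remodelling complex (chromosome 2, 119373042 to 119478685), had 10 and 54 counts in the M2 KO libraries and 0 in all zygote libraries (edgeR unadjusted p = 0.0278). Arpp19 (chromosome 9, 75037614 to 75060313), which in its phosphorylated form inhibits PP2A and so sustains the meiotic M phase, had 9 and 25 counts in eggs and 0 in zygotes (unadjusted p = 0.0187). Both genes kept counts in Het zygotes. Ino80 had 48, 0 and 0 counts there and Arpp19 had 16, 14 and 0, against 22 and 0 and against 0 and 29 in Het eggs. The difference between the genotypes did not pass for either (unadjusted p = 0.0693 and 0.0781 by edgeR).

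The other lost genes rested on fewer counts. Tceal9 had 1 and 18 counts in the M2 KO libraries, Tns1, a focal adhesion protein, 1 and 17, Lrrcc1, a centrosomal protein, 1 and 17, and Wdhd1, a replication factor, 1 and 11. Of the 10 lost genes, 7 had counts in Het zygotes. Itpr1, the calcium channel of the ER through which the egg's calcium waves pass at fertilisation, belonged to the lost set with 1 and 10 counts in KO eggs, and Het zygotes had 10, 6 and 0. It was named here after its values were seen.

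The 17 genes that were lower at an unadjusted p under 0.05 were mostly genes of a single egg library. Of them, 14 had counts in only 1 M2 KO library and in no PN5 KO library, 13 in replicate 2, the deepest of the KO libraries, and 1 in replicate 1. The 13 included Ncor1, a co-repressor scaffold, with 221 counts, Tpr, a protein of the nuclear pore basket, with 285, Eif3c, a subunit of initiation factor 3, with 203, and Rad50, a DNA repair protein, with 154. Only Arpp19, Ino80 and Vaultrc5 were counted in both egg libraries. Vaultrc5, a small noncoding vault RNA, was the one abundant gene among them, with 191 and 2725 counts in eggs and 83, 180 and 86 in zygotes. Its CPM was 42942 ± 22772 (SD, n = 2) in eggs and 6254 ± 4978 (SD, n = 3) in zygotes. The groups did not overlap, and the edgeR log2 fold change was -2.78 (SE 1.17, unadjusted p = 0.03, adjusted p = 1). Without M2 KO replicate 2 the log2 fold change of Vaultrc5 was -1.80 (unadjusted p = 0.248), without PN5 KO replicate 2 it was -3.65 and without M2 KO replicate 1 it was -3.56, and the unadjusted p rose above 0.05 also without PN5 KO replicate 1 (0.0922) or 3 (0.0936). The genes next in order that were counted in both egg libraries had few counts, apart from Cntln. Cntln, a centrosomal protein, had 40 and 76 in eggs and 25, 15 and 81 in zygotes (edgeR unadjusted p = 0.217), and Naa35, a subunit of an N-terminal acetyltransferase, had 11 and 5 and then 0, 1 and 8 (unadjusted p = 0.184). Rcor3, Ppp1r12b and Mir122 each had at most 10 counts over both egg libraries and at most 4 over the zygote libraries.

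**Figure D3:**
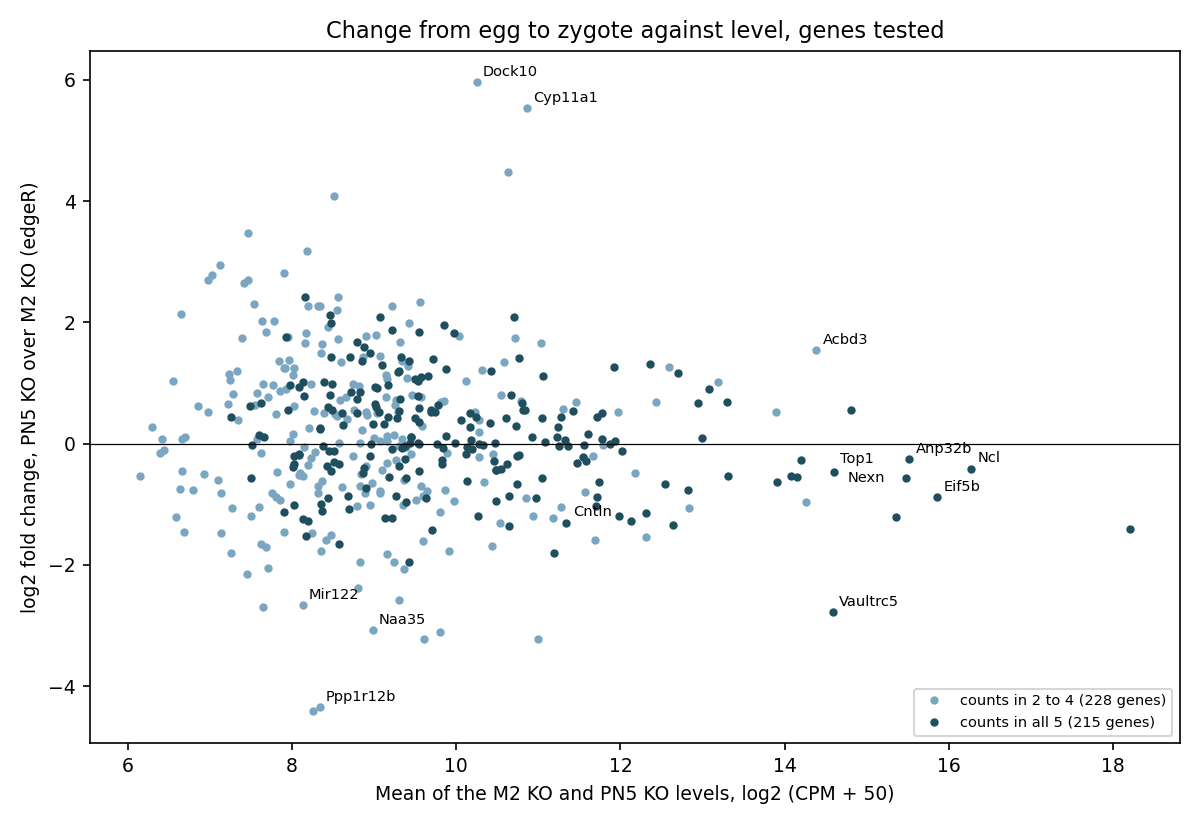
The edgeR log2 fold change of PN5 KO over M2 KO against the mean level of the stages, log2 (CPM + 50), for the 443 tested genes with counts in both KO stages, coloured by the number of KO libraries with a count. The 215 genes counted in all 5 libraries and the 228 counted in fewer lie on both sides of the zero line, with Vaultrc5 (-2.78) low among the abundant genes.

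Without a test, 45 of the 533 genes (8.44%) had stages that did not overlap on the CPM scale. In 15 of them (2.81%) all zygote libraries lay above the egg libraries, and in 30 (5.63%) below. As a share of the protein-coding counts the 15 kept this separation and 20 of the 30 did, while 10 overlapped. Rsrc1, a splicing-related protein, was the most deeply counted of those above, with 984 and 867 CPM in eggs and 1823, 1563 and 3984 in zygotes (log2 fold change 1.41, SE 1.18, edgeR unadjusted p = 0.249). G3bp2, a stress granule protein that binds mRNA, was at 141 and 86.7 CPM in eggs and 790, 391 and 301 in zygotes (log2 fold change 2.12, SE 1.74). Among those below was Ktn1, the ER receptor of kinesin, with 5902 and 6674 CPM in eggs and 2978, 3322 and 1506 in zygotes (log2 fold change -1.27, SE 1.43). Cenpe, the kinetochore motor needed to align chromosomes, was at 7448 and 10639 CPM against 6747, 4039 and 5189 (log2 fold change -0.76, SE 1.42). Ubtfl1, a relative of the nucleolar transcription factor UBTF known from the preimplantation embryo, was at 984 and 1040 CPM against 608, 130 and 46.3, with 55 counts in eggs and 14 in zygotes. These 5 genes were chosen for the text after their values were seen.

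Translation initiation factors, with most of their counts on Eif5b, took a smaller part of the protein-coding counts in each zygote library than in either egg library. The 55 initiation factors summed to 11.3% and 8.03% in M2 KO and to 4.35%, 5.65% and 6.20% in PN5 KO. Eif5b made up 7028 of the 8299 counts, and only 18 of the 55 factors had a count in a KO library. Without Eif5b the list stood at 0.967% and 1.57% in eggs against 0.11%, 0.948% and 0.845% in zygotes. These did not overlap, but the gap was narrow, 0.948% against 0.967%. Much of that rest was Eif3a, at 0.734% and 0.863% in eggs and 0%, 0.423% and 0.48% in zygotes. The members did not move together. Of the 7 tested, 3 were higher and 4 lower, with a median log2 fold change of -0.30 that became 0.15 under library totals, against a median of 0.12 over the 515 tested genes with KO counts, and no member passed the adjusted test. Eif3a, the largest subunit of initiation factor 3, had 44 and 409 counts in eggs and 0, 50 and 192 in zygotes. Eif4g1, the scaffold that eIF4E binds, had 2 and 26 counts and then 0, 15 and 50, and the related Eif4g2 had 2 and 16 and then 9, 18 and 6. In Het libraries the list overlapped, at 6.11% and 7.85% in eggs and 4.40%, 3.96% and 11.8% in zygotes.

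Maternal-effect genes, which are made in the oocyte and needed by the embryo, took a larger part in each zygote library. The 43 listed genes summed to 0.334% and 0.346% of the protein-coding counts in M2 KO and to 1.23%, 0.737% and 1.21% in PN5 KO. Without Zbed3, the member with most counts, the values were 0.283% and 0.27% against 0.773%, 0.703% and 0.845%. The whole list rests on 20 and 164 counts in eggs and 189, 87 and 483 in zygotes. Of the 42 members with a row, 31 had no count in either egg library and 26 none in any zygote library. Even full separation of 3 libraries from 2 cannot reach a p under 0.1 by an exact permutation test. None of the 5 tested members passed the adjusted edgeR test. Their log2 fold changes were all above 0, where 53.5% of all tested genes were higher, and their unadjusted edgeR p-values ran from 0.208 to 0.77. The median was 1.66, against 0.12 over the 515 tested genes with KO counts. With DESeq2 size factors it was 1.73 and with library totals 1.87. On the CPM scale each of the 5 members overlapped between the stages. Zbed3, a member of the subcortical maternal complex, had 3 and 36 counts in eggs and 70, 4 and 145 in zygotes (log2 fold change 2.09, SE 1.59). Dnmt1, the maintenance DNA methyltransferase, had 12 and 42 and then 34, 11 and 104. Ezh2, the histone H3K27 methyltransferase, did not reach the filter and had 150 counts in PN5 KO replicate 3 alone. In Het the list overlapped, at 0.555% and 0.467% in eggs and 0.647%, 1.65% and 0.29% in zygotes.

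Beside these values stand those of the follicle cells that surround the egg. Of 20 cumulus and granulosa markers, 5 had a count in a KO library. Their summed share was 0% and 0.116% in M2 KO and 0.318%, 0.212% and 0.888% in PN5 KO, which do not overlap either. Cyp11a1, the steroidogenic enzyme of granulosa cells (chromosome 9, 57998024 to 58027031), made up most of it, with 0 and 5 counts in eggs and 47, 0 and 340 in zygotes (edgeR unadjusted p = 0.0506). Without Cyp11a1 the shares overlapped, at 0% and 0.105% in eggs and 0.013%, 0.212% and 0.0375% in zygotes. Inhba had 0 and 50 counts in eggs and 2, 9 and 14 in zygotes, and Vcan had 15 counts in PN5 KO replicate 2 alone. The other listed markers of these cells with a count, Ptx3 and Cyp19a1, had 1 count each. In pooled samples, fewer cells of a type and less RNA per cell cannot be told apart, and the part of these cells in the results was not tested. None of 10 sperm markers and 1 of 6 blood markers (Ptprc, 1 count) had a count in a KO library.

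Chromatin remodelling complexes held named genes in both directions. Of 21 tested members, 14 were higher and 6 lower, where 53.5% of all tested genes were higher and 43.2% lower. An unadjusted p under 0.05 by edgeR, reached by 3.56% of all tested genes, was reached by 3 members, Brd9 higher and Ino80 and Brd7 lower, and no member passed the adjusted test. Brd7, a subunit of another SWI/SNF complex, had 109 counts in M2 KO replicate 2 alone. Smarca2, the SWI/SNF ATPase also called BRM, was the most abundant member after Atrx, with 53 and 364 counts in eggs and 123, 56 and 1116 in zygotes (log2 fold change 0.69, unadjusted p = 0.53). Chd4, the ATPase of the NuRD complex, had 19 and 137 and then 50, 41 and 246. The list summed to 4.40% and 3.83% of the protein-coding counts in eggs and 3.51%, 3.88% and 6.28% in zygotes, which overlap. In Het it was at 3.58% and 3.79% in eggs and at 5.67%, 5.49% and 9.04% in zygotes, which do not overlap.

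Histone chaperones and nucleolar genes, both led by Ncl, overlapped between the stages in KO but not in Het. The 103 nucleolar and ribosome biogenesis genes summed to 13.5% and 9.77% in eggs and 12.3%, 6.02% and 9.26% in zygotes. Of the 22 tested, 9 were higher and 13 lower, a split that turned to 13 and 9 under library totals. Without Ncl the list stood at 1.55% and 1.96% against 1.89%, 0.855% and 2.03%. Nol8, a nucleolar RNA-binding protein, lay below in all zygote libraries (10 and 86 counts in eggs and 13, 15 and 17 in zygotes), and Rbm28, a nucleolar spliceosomal protein, above on the CPM scale (1 and 36, then 17, 19 and 39). The 40 histone variants and chaperones summed to 22.5% and 13.8% in eggs and 17.9%, 9.50% and 15.5% in zygotes. Of the 9 tested members with KO counts, 3 were higher and 6 lower, which became 6 and 3 under library totals. Het eggs had 17.3% and 19.9% on this list and Het zygotes 8.29%, 11.3% and 9.23%.

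Storage and decay factors of maternal mRNA did not separate the stages. The 62 listed genes summed to 0.35% and 1.61% in eggs and 1.09%, 1.43% and 0.628% in zygotes, with 6 of 9 tested members higher and 3 lower. Upf3b, of nonsense-mediated decay, had 98 counts in M2 KO replicate 2 alone. Ybx1, a cold-shock domain protein that packages mRNA, had 2, 14 and 0 counts in KO zygotes and none in KO eggs, and in Het it had none in eggs and 69, 0 and 3 in zygotes. Btg4, the adaptor that brings the deadenylase to maternal mRNAs, had 8 counts in PN5 KO replicate 1 alone. Cnot1, the scaffold of that deadenylase, had 0 and 5 counts in eggs and 1, 4 and 23 in zygotes (log2 fold change 2.02, unadjusted p = 0.37 by edgeR). Tut4 and Tut7, which add uridines to mRNA tails, had 0 and 101 and then 5, 25 and 3, and 2 and 33 and then 5, 15 and 59.

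Genes of the cell cycle and of the cytoskeleton were present in both stages at similar shares. Of 12 tested genes of meiosis, the spindle and the cell cycle, 6 were higher and 6 lower, and the sums were 2.13% and 3.43% in eggs and 3.59%, 2.18% and 3.90% in zygotes. Cenpf had 17 and 174 counts in eggs and 55, 20 and 120 in zygotes, and Incenp, the scaffold of the chromosomal passenger complex, had 17 and 81 and then 81, 11 and 119. Anln, the cytokinesis protein anillin, had 0 and 2 counts in eggs and 0, 3 and 20 in zygotes. The 62 cytoskeletal and anchoring genes took 19.0% and 14.7% in eggs and 15.7%, 15.0% and 16.1% in zygotes, with 11 of 28 tested members higher and 17 lower (15 and 13 under library totals).

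The summed shares of the remaining lists overlapped between the stages. Splicing and nuclear RNA-binding genes had 16 tested members higher and 16 lower, and summed to 2.33% and 4.56% in eggs and 3.49%, 5.45% and 3.58% in zygotes. Histone and DNA modification enzymes had 10 higher and 8 lower, among them Sin3a, a co-repressor scaffold, with 18 and 23 counts in eggs and 0, 8 and 0 in zygotes. RNA polymerase II genes had 3 higher and 5 lower, DNA-bound architectural proteins 4 and 7, ER chaperones 3 and 2 and elongation and termination factors 1 and 2. Cytosolic ribosomal proteins were hardly sampled: 32 of 82 had a count, 3 were tested, and the sum was 0.35% and 1.25% in eggs and 0.611%, 0.999% and 0.33% in zygotes. Of the 48 zygotic activation and reprogramming factors, 8 had a count and only Rif1, a replication timing and telomere protein, could be tested. It had 8 and 49 counts and then 15, 24 and 30 (log2 fold change -0.05, SE 1.36, which became 0.27 under library totals). The whole list overlapped, at 0.133% and 0.105% in eggs and 0.253%, 0.229% and 0.11% in zygotes. It had 8 and 50 counts in eggs and 39, 27 and 44 in zygotes. Without Rif1 this list stood at 0% and 0.0021% in eggs and at 0.156%, 0.0254% and 0.035% in zygotes. These last shares do not overlap, but they rest on few counts of genes that could not be tested. Among 8 markers of the 2-cell stage, Zfp352 alone had counts, 2 in PN5 KO replicate 3.

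**Figure D4:**
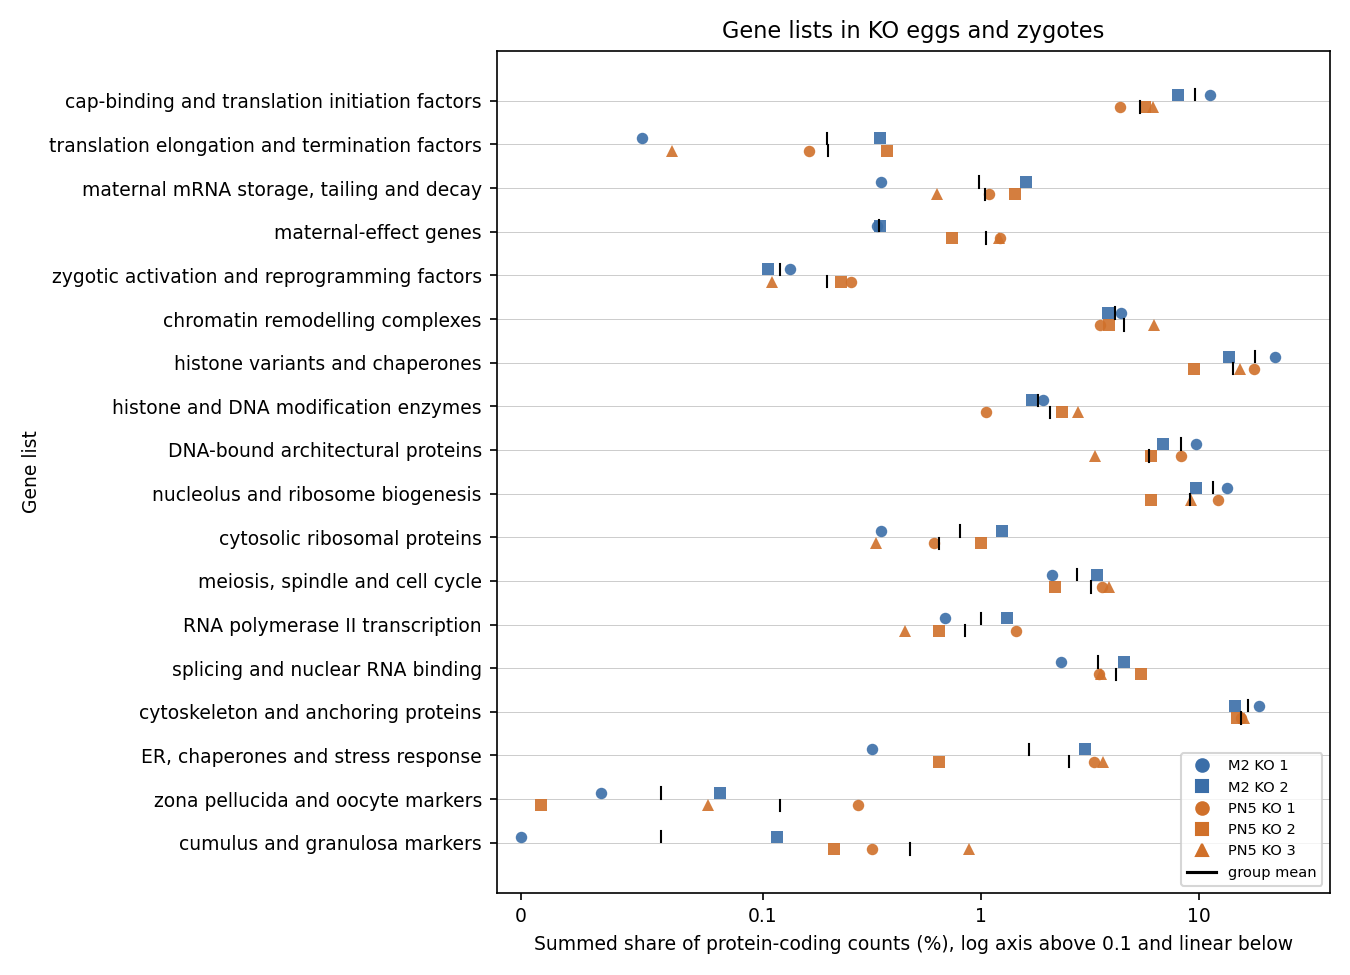
Summed share of the protein-coding counts (%) of the 18 gene lists with tested members in each KO library, on an axis that is logarithmic above 0.1% and linear below; blue marks M2, orange PN5 and bars the group means. Initiation factors are lower in the 3 zygote libraries (4.35% to 6.20%) than in the 2 egg libraries (8.03% and 11.3%), and maternal-effect genes are higher (0.737% to 1.23% against 0.334% and 0.346%). Cumulus and granulosa markers are higher as well (0.212% to 0.888% against 0% and 0.116%).

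The change at fertilisation was then compared with that of Het eggs and zygotes, by a term for the difference in the same model. The edgeR test called 0 of 533 genes (0% called; smallest adjusted p = 0.9998), with 22 at an unadjusted p under 0.05 (4.13%), 9 with a higher change in KO (1.69%) and 13 with a lower one (2.44%). DESeq2 called 0, with 14 at an unadjusted p under 0.05 (2.63%), and limma-voom 0, with 33 (6.19%). Cyp11a1 had the smallest p, 0.00246 unadjusted by edgeR. Its counts ran from 0 and 5 in KO eggs to 47, 0 and 340 in KO zygotes, and from 160 and 9 in Het eggs to 0 in all 3 Het zygote libraries. It was followed, among genes counted in at least 2 libraries of the higher KO group, by Rbm6 (unadjusted p = 0.0122), with 22 counts in Het egg replicate 2 and none in Het zygotes, and by Spin1 (unadjusted p = 0.0195), with 6 counts in Het egg replicate 2 and none in Het zygotes. Both are genes of the gained set, at 0 in the KO eggs, so their difference rests on 1 library in Het and 2 in KO.

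Ncl, the leading mRNA, did not pass the test of the difference between genotypes. In Het its share of the protein-coding counts was 10.9% and 11.6% in eggs and 3.93%, 4.93% and 4.07% in zygotes, which do not overlap, while in KO it was 11.9% and 7.81% and then 10.4%, 5.16% and 7.23%. The log2 fold changes were -1.51 (SE 0.81) in Het and -0.41 (SE 0.81) in KO, and the difference was 1.10 (SE 1.16, edgeR unadjusted p = 0.36). For Eif5b the order was the reverse, with -0.32 (SE 0.79) in Het and -0.88 (SE 0.79) in KO, a difference of -0.56 (SE 1.13, unadjusted p = 0.629). Vaultrc5, which was lower in KO zygotes, had 393 and 459 counts in Het eggs and 315, 1766 and 358 in Het zygotes, and the difference was -3.43 (SE 1.68, unadjusted p = 0.0589). Arpp19 and Ino80 have their differences above.

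**Figure D5:**
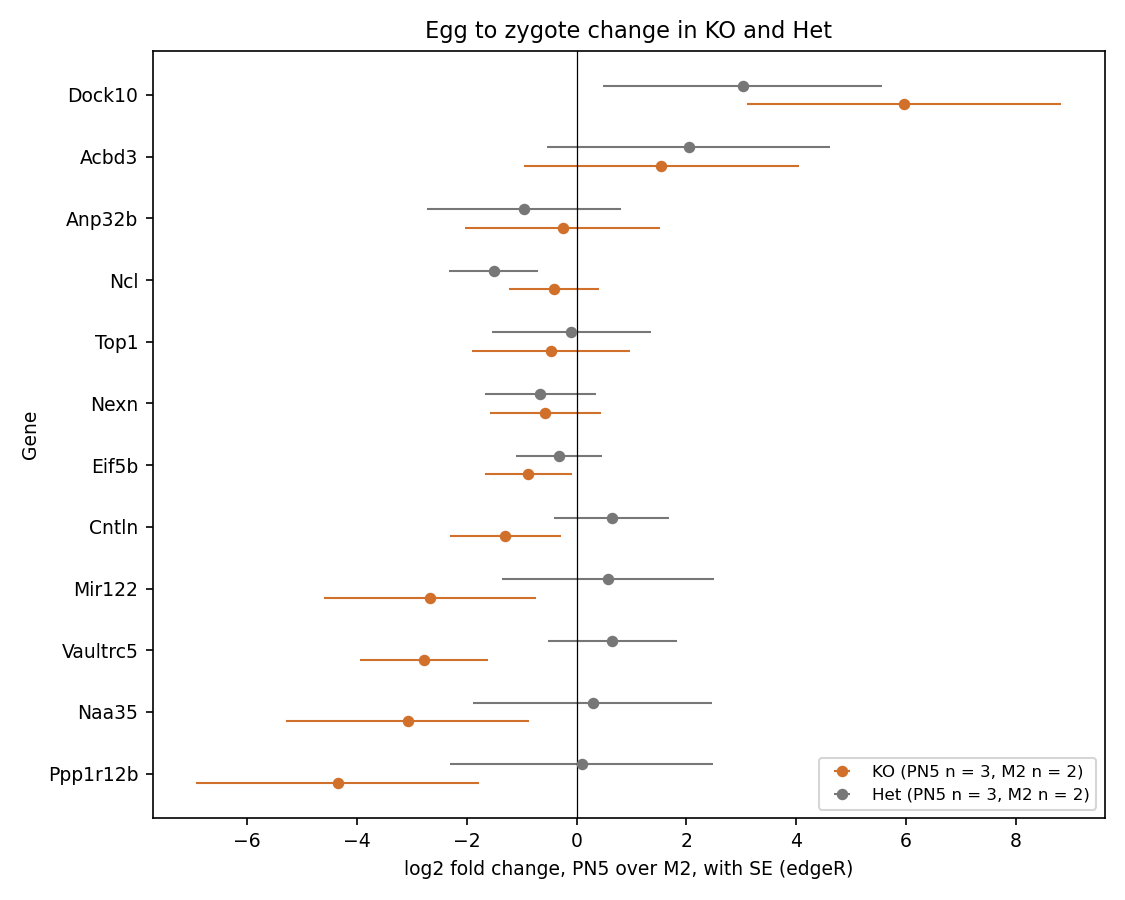
The edgeR log2 fold change of PN5 over M2 with its SE in KO (orange) and in Het (grey), each with 3 zygote and 2 egg libraries, for the 12 genes that lead a stage or have the smallest p-values and have counts in both stages of both genotypes. Ncl lies at -0.41 in KO and -1.51 in Het and Eif5b at -0.88 and -0.32, and no difference passed the adjusted test.

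Leaving out the 2 libraries rich in CT010467.1, an alternative chosen after the data were seen, also called 0 genes by edgeR (smallest adjusted p = 0.288), with 61 of 924 genes at an unadjusted p under 0.05. The lone egg library was then assumed to vary like the other groups.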

How the data were processed

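The values analysed are estimated counts, which the authors deposited as a single table with a row per gene. They are whole numbers, and their totals differ between libraries. The genome build was GRCm38 and the tools named were StringTie 2.1.4, STAR 2.7.6a, cutadapt and deepTools 3.5.1, per the submitters' processing notes. The derivation of these counts and the treatment of reads matching several genes were not given in the sources used here. No molecular identifiers are named, so reads copied by PCR may count 1 molecule repeatedly. Per the labels' protocols, RNase I (100 units, 45 min) preceded the 4 h pull-down, and libraries were amplified for 22 cycles.

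The 3 rRNA_ rows and 37 mt- rows were dropped before scaling, leaving 55450 of 55490 genes. Biotypes and coordinates came from RefSeq GRCm38.p6, matched by symbol (39101 genes) or older symbol (164). The whole numbers were taken as rounded estimated counts. In R 4.3.3, edgeR 4.0.16 fitted 1 robust quasi-likelihood model with TMM factors to all 15 libraries in 6 groups (9 residual degrees of freedom), over the 533 genes passing filterByExpr with a minimum count of 10. Adjusted p-values are Benjamini-Hochberg values over all of them. Each SE was computed from the fold change and the F statistic of its edgeR test. DESeq2 1.42.0, limma 3.58.1 (voom), other scalings and filters and leaving out libraries were alternatives. The fitting code was also run on simulated counts with known changes, whose outcome is not given or relied on here. Replicate numbers were not taken to pair the samples: deviations of same-numbered libraries correlated at 0.0145 and 0.0695. The deviations of the 2 egg libraries mirror each other, so these values cannot decide whether same-numbered pools belong together.

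Named genes were the 8 with the smallest p in each direction, the 5 leaders of each stage, the member with the smallest p of each list, and the 3 with the smallest p for the difference between genotypes, with Eif4e1b, Eif4e and Rpl22. Up to 6 gained and 6 lost genes were added by total count, and list members beside these to illustrate a list. The comparison, its members and the 20 gene lists were chosen with earlier results of these data known.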

Additional observations from a re-analysis of the deposited data

How the results depend on the processing

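No gene was called in either comparison under any alternative run. Over the scalings, filters, tools and sets of libraries, the genes at an unadjusted p under 0.05 numbered 2 (5 KO libraries only) to 85 (no low-count filter) for PN5 KO against M2 KO, and 5 to 48 when a library was left out, the most without M2 KO replicate 1. For the difference between genotypes the smallest adjusted p was 0.0626, without the low-count filter. With the replicate number as a block, which is not known to pair these samples, 6 genes had an unadjusted p under 0.05 for KO and 25 for the difference, and none was called. Library totals in place of TMM factors moved the median log2 fold change by 0.36 and the share of genes with a higher value from 55.3% to 66.0%, and limma-voom moved them by -0.40 and to 40%. The sign turned for Ncl (0.048), Anp32b (0.27) and Rif1 (0.27) under library totals, for Anp32b with the replicate block (0.084), and for Anp32b (0.58) and Cntln (0.043) without both libraries rich in CT010467.1. The cause was not tested. With a library left out, the range was -0.64 to 0.12 for Anp32b, -4.22 to 1.53 for Eef1a1 and -0.50 to 0.27 for Rif1. Other named genes kept their sign. The log2 difference in retained counts, -0.09, was 0.20 for protein-coding counts and ran from -1.26 to 1.07 with a library left out, and the difference in genes detected, 178, from -92.3 to 449. The rRNA share ranged from -0.29 to -0.02 and the mitochondrial share from 0.24 to 1.20. Depth limits all of these results: M2 KO replicate 1 held 5997 protein-coding counts.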
